A study of Mus musculus with 9 samples.

Results

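The hindbrains of d9-20 mouse embryos were compared with those of their wild-type (wt) littermates across all genes that passed a count filter. The d9-20 embryos carry a Zfp423 allele without exon 4, and their ZFP423 protein is labelled as lacking zinc fingers 9 to 20. The wt littermates have the full-length protein. Both groups are C57BL/6N embryos on embryonic day 9.5, untreated, with 3 libraries each, so that 6 of the 9 libraries of the series were compared. The other 3 libraries come from embryos of the d28-30 allele (exons 6 and 7 deleted, zinc fingers 28 to 30 absent). They entered the count filter, the scaling and the estimate of the spread between libraries. Their values are compared only where they are named. Whether the embryos were homozygous, or were pooled, is not given in the sources used here. Of 48587 genes in the table, 15695 passed the filter and were tested.

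ZFP423 is a nuclear protein with many zinc fingers that binds DNA and also binds partner proteins, among them EBF transcription factors, SMAD proteins activated by BMP signals and retinoic acid receptors. Mice without it have a malformed cerebellar midline and hindbrain, and variants of the human gene have been linked to Joubert syndrome and related ciliopathies. At this stage the dorsal midline of the hindbrain forms the roof plate, a source of BMP and WNT signals, and the choroid plexus epithelium, whose cells later carry many motile cilia, arises next to it.

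Libraries held 19856714 to 21160036 counts in d9-20 and 19217956 to 21657749 in wt. Whether a group's libraries came from separate embryos is not stated, and the p-values therefore reflect the spread between these libraries alone. The hindbrain genes Hoxa2, Hoxb1, Hoxb2, Egr2 and Gbx2 were present in all 6 libraries, while Ttr, a defining transcript of mature choroid plexus, was at 0.05 to 0.40 CPM (read counts scaled to library size) in d9-20 and 0.00 to 0.45 CPM in wt. The libraries differed in sex. The 4 Y-linked genes summed to 0.0506, 116 and 172 CPM in the d9-20 libraries, against 205, 63.7 and 168 CPM in wt, and Xist was at 1646, 588 and 0.940 CPM in d9-20, against 3.44, 730 and 0.206 CPM in wt. Replicate 2 of both groups held both Xist and Y-linked RNA. Primitive erythroid genes made up 0.397% to 0.452% of counts in d9-20 and 0.443% to 0.832% in wt (two-sided exact permutation p = 0.2, where 0.1 is the smallest that 3 against 3 libraries can give). Values per library are given below as replicates 1, 2 and 3 of each group.

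Few genes differed past the threshold. With edgeR's quasi-likelihood test, 26 of 15695 genes (0.166%) had an adjusted p under 0.05, 23 higher (0.147%) and 3 lower (0.0191%) in d9-20. The genes that fell were Gmnc, Msx2 and Mri1. Those that rose include a matrix gene (Coch), genes of muscle-type cytoskeleton (Des, Flnc), synaptic genes (Nptx2, Rimbp2), a BMP antagonist (Grem1) and a death gene (Pmaip1). The groups did not overlap in any of the 26 genes. Over all genes tested, the 3 d9-20 libraries lay above the 3 wt libraries in 5.99% and below them in 5.17%, and an unadjusted p under 0.05 was reached by 2.89% of genes as higher and 3.07% as lower. The median log2 fold change of all genes was 0.00, and 48.8% lay below 0. The count depended on the libraries in the fit: it was 93 of 15915 (0.584%) without d28-30 replicate 2, a library with a mitochondrial share of 2.07% beside 0.904% to 1.42% in the d9-20 and wt libraries, 40 of 15394 (0.26%) with the 6 d9-20 and wt libraries alone, and 55 (0.35%) with the replicate number as a block. The first and last of these sets hold all 26 genes, and the second holds 25 of them. It was 9, 7 and 16 without d9-20 replicate 1, 2 and 3, and 7, 17 and 6 without wt replicate 1, 2 and 3. Without d28-30 replicate 1 and 3 it was 18 and 15. A fit with the erythroid share as covariate called 5 genes, of which 4 were among the 26. Of the 23 called genes named here, Coch and Gmnc passed in it and the other 21 did not (adjusted p at least 0.0683), with values for some of them below. A fit with the Y-linked level as covariate called 13 genes, all among the 26. In that fit Grem1, Bcas1, Irx4, Emilin2, Sez6l, Nrp2, Slc38a8, Msx2, Fam101a, Clmn, Six2 and Adgrg3 missed the threshold. The part of sex and of erythroid content in the calls was not tested beyond these fits.

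**Figure D1:**
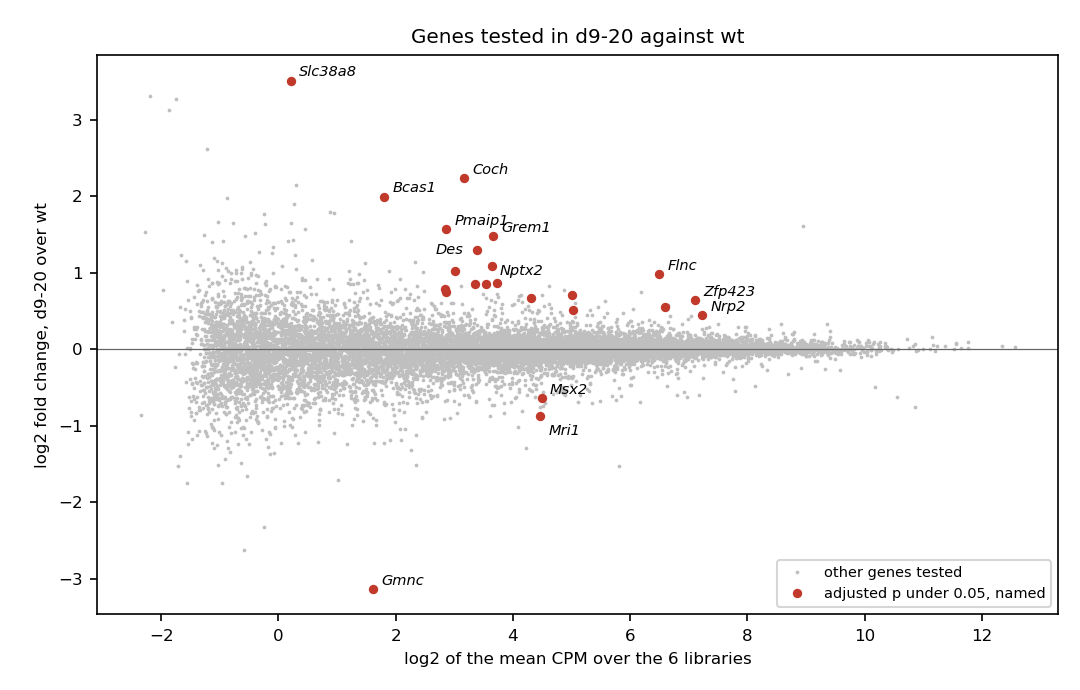
Log2 fold change of d9-20 over wt (vertical axis) against the log2 of the mean CPM over the 6 libraries (horizontal axis) for the genes tested. Red points are the named genes past an adjusted p of 0.05 and 3 further genes past it are not drawn; Gmnc and Slc38a8 lie at the extremes with -3.13 and 3.51.

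Zfp423 itself had 155, 156 and 194 CPM in d9-20, against 101, 105 and 118 CPM in wt. All 3 d9-20 libraries lay above all 3 wt libraries, and the count over the whole gene rose by a log2 fold change of 0.64 ± 0.10 (SE, adjusted p = 0.0360). The gene lies at chr8:87661810-87959595 (GRCm38), and reads were counted per gene and not per exon, which hides the deletion itself. The call was lost without any 1 of the 6 d9-20 and wt libraries or without d28-30 replicate 1 or 3 (adjusted p up to 0.249). Upper-quartile scaling and the erythroid covariate ended it too (0.331 with the covariate). Of the 9 tested genes of the list of Zfp423, its relative Zfp521 and the EBF factors, Zfp423 was the only one past the threshold. Ebf4, which encodes an EBF factor, had 10.4, 9.84 and 11.5 CPM in d9-20, against 7.30, 5.98 and 7.87 CPM in wt, with an adjusted p of 0.221.

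Gmnc, which encodes a geminin relative that commits cells to making many cilia, showed the deepest fall. It had 0.506, 0.605 and 0.752 CPM in d9-20, against 7.71, 5.07 and 3.70 CPM in wt, and fell by 3.13 ± 0.31 on the log2 scale (adjusted p = 0.00404). The groups were far apart, and the wt libraries differed more among themselves than the d9-20 libraries did. Gmnc lies at chr16:26913553-26991652 and was past the threshold with each of the 9 libraries left out in turn (adjusted p at most 0.0384). Of the 16 tested genes of the multiciliation list, 9 lay below 0 and 3 of these had an unadjusted p under 0.05. Besides Gmnc these were Ccno and Trp73. Ccno, whose product is needed to multiply centrioles, had 11 counts over the d9-20 libraries and 70 over the wt libraries, 0.157 times as many per read counted (Clopper-Pearson, exact, 95% limits 0.0749 and 0.298, counting error only), with an adjusted p of 0.117. Trp73, which encodes a p53 family factor needed for multiciliated cells, had 0.608, 0.454 and 0.517 CPM in d9-20, against 1.88, 0.553 and 1.13 CPM in wt, so that wt replicate 2 overlapped d9-20. The median of the list was -0.03.

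Genes of the motile axoneme lay below 0 in 21 of 26 cases, with a median of -0.19 (-0.11 with the erythroid covariate), although none passed the threshold. At an unadjusted p under 0.05, 2 were lower and 1 was higher. Ccdc40, a gene of the ruler that spaces the inner arms and radial spokes, had 31.8, 31.2 and 33.9 CPM in d9-20, against 36.3, 37.6 and 38.8 CPM in wt. Drc1, which encodes a subunit of the nexin-dynein regulatory complex, had 0.456, 0.454 and 0.705 CPM in d9-20, against 1.06, 1.16 and 0.668 CPM in wt. Armc4, a gene of outer dynein arm docking, was on the other side with 1.32, 1.92 and 1.74 CPM in d9-20, against 0.872, 0.804 and 0.7197 CPM in wt. Genes of the primary cilium and of Joubert syndrome stood apart from this picture: 22 of 47 lay above 0, the median was -0.01, and none had an unadjusted p under 0.05.

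The roof plate list was lower in most members. Of 14 genes, 12 lay below 0 and 5 had an unadjusted p under 0.05, all of them lower, while the median was -0.21. Msx2, a homeobox gene of the dorsal midline that BMP signals switch on, had 16.5, 17.8 and 18.5 CPM in d9-20, against 26.1, 27.5 and 28.3 CPM in wt. Each group was tight and they did not overlap (log2 fold change -0.63 ± 0.10, adjusted p = 0.0360). It lies at chr13:53466884-53473074. Bmp6, a BMP ligand gene, had 3.34, 3.48 and 4.51 CPM in d9-20, against 6.84, 5.83 and 8.58 CPM in wt (adjusted p = 0.0879, and 0.0391 with the replicate block). Lmx1a, the LIM homeobox regulator of roof plate fate, had 14.7, 15.1 and 15.05 CPM in d9-20, against 24.4, 21.2 and 22.3 CPM in wt (adjusted p = 0.112). The groups did not overlap in Bmp6 and Lmx1a either. Rspo1, which encodes a secreted enhancer of WNT signals, had 14.7, 12.3 and 21.6 CPM in d9-20, against 25.4, 20.4 and 29.6 CPM in wt, with overlap in d9-20 replicate 3 (adjusted p = 0.499, and 0.0391 with the replicate block). Msx2 lost its call without any 1 of the d9-20 and wt libraries or d28-30 replicate 3 (adjusted p up to 0.215). It also missed the threshold with either covariate (0.203 with the erythroid share). In the fit with the erythroid covariate the adjusted p of Bmp6, Lmx1a and Rspo1 were 0.917, 0.904 and 0.917.

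The roof plate list was lower in d9-20 in each pair of libraries with the same number, by unequal amounts. The median difference of its members from the mean of the wt libraries was -0.31, -0.35 and 0.01 (log2) in the d9-20 libraries, against -0.05, -0.08 and 0.12 in wt, so that d9-20 replicate 3 lay within the wt range. Within pairs 1, 2 and 3 the list medians differed by -0.27, -0.27 and -0.11. The median fold change of the list was -0.40 without d9-20 replicate 3 and -0.21 with the erythroid covariate. The rhombic lip list, whose cells give rise to dorsal hindbrain and cerebellar neurons, had 14 of 17 members below 0 and a median of -0.20. Olig3, a factor of dorsal progenitors, had 19.9, 18.6 and 26.4 CPM in d9-20, against 33.2, 30.4 and 32.5 CPM in wt (adjusted p = 0.146, and 0.0356 without d9-20 replicate 3). Msx3, a homeobox gene of the dorsal neural tube, had 43.2, 42.6 and 48.9 CPM in d9-20, against 58.0, 53.1 and 49.5 CPM in wt. Barhl1, a marker of neurons that leave the rhombic lip, had 1.16, 1.87 and 3.34 CPM in d9-20, against 5.10, 2.51 and 5.09 CPM in wt. Here too d9-20 replicate 3 was the highest of its group, and the list medians of -0.27, -0.32 and 0.12 in d9-20 overlapped those of 0.12, -0.28 and 0.16 in wt. Within pairs they differed by -0.39, -0.04 and -0.05. The median fold change of the list was -0.32 without d9-20 replicate 3 and -0.03 with the erythroid covariate. In the fit with that covariate the adjusted p of Olig3 was 0.857.

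Choroid plexus epithelium genes did not share this direction: 9 of 16 lay above 0 and the median was 0.01. At an unadjusted p under 0.05, 2 members were lower. Slc4a5, which encodes a bicarbonate transporter of the mature epithelium, had 1.67, 2.37 and 1.97 CPM in d9-20, against 3.21, 2.66 and 2.93 CPM in wt. Cdo1, which encodes cysteine dioxygenase, had 16.2, 16.2 and 17.02 CPM in d9-20, against 20.0, 19.5 and 17.9 CPM in wt. Both had no overlap between the groups and adjusted p of 0.6998 and 0.764. Among ventral and floor plate genes 8 of 15 lay above 0, with Corin at a log2 fold change of -0.52 ± 0.16 and Nkx2-9 at 0.39 ± 0.16, neither past the threshold.

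In the BMP pathway the genes that passed were on opposite sides, with the antagonist gene Grem1 higher and the target gene Msx2 lower. Grem1, which encodes the secreted BMP inhibitor gremlin, had 18.7, 21.9 and 15.6 CPM in d9-20, against 5.83, 8.64 and 5.65 CPM in wt. It rose 2.79-fold (adjusted p = 0.0172), lies at chr2:113746164-113758646, and lost its call without d9-20 replicate 1 or 2 or wt replicate 1 or 3 (adjusted p up to 0.151) and with either covariate (0.183 with the erythroid share). Of 24 ligand, receptor and antagonist genes, 5 were higher and 1 lower at an unadjusted p under 0.05. Bmper, whose product binds BMPs outside the cell, had 4.66, 6.05 and 4.33 CPM in d9-20, against 2.94, 4.17 and 2.52 CPM in wt. The ligand gene Bmp2 had 5.32, 6.86 and 4.23 CPM in d9-20, against 2.39, 4.47 and 1.85 CPM in wt, where the groups overlapped. In Grem1, Bmper and Bmp2, replicate 2 was the highest library in both groups. Of 20 target genes of BMP and TGF-beta, 14 lay below 0 with a median of -0.08, and at an unadjusted p under 0.05 Msx2 and Bambi were lower and Tgfbi and Nbl1 were higher.

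Other signalling lists moved little as a whole, with medians between 0.00 and 0.06 for the WNT, Hedgehog, NOTCH, FGF and retinoic acid lists. Among WNT genes, Notum, which encodes an enzyme that inactivates WNT proteins, had 13.7, 14.6 and 16.6 CPM in d9-20, against 9.28, 8.84 and 10.7 CPM in wt (adjusted p = 0.133, and 0.0493 with the replicate block). The ligand gene Wnt3 had 14.8, 13.2 and 21.4 CPM in d9-20, against 10.01, 9.39 and 11.5 CPM in wt (adjusted p = 0.236), and Wnt1 had 16.7, 19.8 and 15.6 CPM in d9-20, against 20.2, 27.7 and 26.8 CPM in wt (adjusted p = 0.558). These genes did not overlap between the groups, and the list of 31 held 17 above and 14 below 0. With the erythroid covariate the adjusted p of Notum was 0.238. In the retinoic acid list, Stra6, which encodes a retinol uptake receptor, had 22.8, 26.7 and 26.2 CPM in d9-20, against 15.2, 19.7 and 18.0 CPM in wt (adjusted p = 0.593). Of 23 NOTCH genes none and of 17 Hedgehog genes 1, Cdon, had an unadjusted p under 0.05. In the FGF list Fgfr2 and Fgf15 were lower and Fgf8 and Fgf3 higher at that level. Genes of hindbrain segments and of the isthmus, the organizer at the midbrain border, had 4 of 25 members higher at that level and none lower, with Pax2 at a log2 fold change of 0.38 ± 0.13, Fgf8 at 0.39 ± 0.17, Irx3 at 0.27 ± 0.12 and Pax5 at 0.26 ± 0.11, and adjusted p of at least 0.545. Irx3 lies 3.84 Mb from Zfp423. Forebrain and eye genes were at low levels, with 10 of 18 tested and none at an unadjusted p under 0.05. Their median was -0.54, 0.64 and 0.48 in the d9-20 libraries, against 0.13, -0.09 and -0.06 in wt.

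Coch, which encodes cochlin, a matrix protein abundant in the inner ear, rose more clearly than any other named gene by its p. It had 15.1, 13.8 and 15.4 CPM in d9-20, against 2.98, 3.47 and 2.93 CPM in wt. The groups were tight and apart, with a 4.72-fold difference (log2 fold change 2.24 ± 0.14, adjusted p = 6.08e-05) that passed in all 19 alternatives. The gene lies at chr12:51593341-51605771. Its list of matrix genes outside the collagens had 11 of 57 members higher (19.3%) and 6 lower (10.5%) at an unadjusted p under 0.05. Over all genes tested these shares were 2.89% and 3.07%. In 12 members all 3 d9-20 libraries lay above wt, beside 5.99% of all genes. The list was written with earlier results of these data known. Nid2 and Lama5, which encode basement membrane proteins, had 143, 147 and 143 CPM and 152, 151 and 152 CPM in d9-20, against 101, 125 and 104 CPM and 103, 124 and 111 CPM in wt. The groups did not overlap in either gene, whose adjusted p were 0.117 and 0.165, and Nid2 had 0.0465 without wt replicate 2. With the erythroid covariate both had an adjusted p of 0.917. Emilin2, which encodes a glycoprotein of elastic fibres, had 121, 114 and 112 CPM in d9-20, against 75.3, 81.2 and 79.6 CPM in wt, and rose 1.47-fold (adjusted p = 0.0242). Its call was lost without any 1 of the d9-20 and wt libraries or d28-30 replicate 3 (adjusted p up to 0.199). Either covariate ended it too (0.169 with the erythroid share).

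The collagen genes Col1a1, Col1a2 and Col6a3 had lower levels in d9-20 without passing the threshold. Col1a1, which encodes a chain of type I collagen, had 26.5, 21.04 and 39.0 CPM in d9-20, against 58.3, 118 and 73.0 CPM in wt (log2 fold change -1.52 ± 0.27, adjusted p = 0.0664, and 0.0465 with the replicate block). Col1a2, the gene of the partner chain, had 89.2, 83.1 and 125 CPM in d9-20, against 148, 159 and 152 CPM in wt (adjusted p = 0.117, and 0.0380 with the replicate block). Col6a3, a gene of microfibrillar collagen, had 2.48, 1.82 and 3.90 CPM in d9-20, against 7.25, 6.28 and 6.99 CPM in wt (adjusted p = 0.0617, and 0.0327 with the replicate block). The groups did not overlap in these genes. Col6a1 and Col6a2, which encode the partner chains of Col6a3 and were picked for mention with their values known, had log2 fold changes of -0.24 ± 0.12 and -0.22 ± 0.14, and their groups overlapped. Col7a1, the anchoring fibril gene, was higher instead, with 25.6, 26.3 and 21.1 CPM in d9-20, against 13.2, 16.88 and 15.5 CPM in wt (adjusted p = 0.363). Over all 33 collagen genes 14 lay above and 19 below 0, with a median of -0.02 (-0.09 to 0.10 over the alternatives). Without d28-30 replicate 2, Col6a3, Col1a1 and Col7a1 passed the threshold (adjusted p up to 0.0371), and without d9-20 replicate 3 Col6a3 and Col1a2 passed (up to 0.0160). With the erythroid covariate the adjusted p of Col1a1, Col1a2, Col6a3 and Col7a1 were 0.130, 0.638, 0.494 and 0.904.

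In the list of muscle and contractile cytoskeleton, Des and Flnc rose. Des, which encodes the intermediate filament desmin, had 14.6, 14.2 and 15.9 CPM in d9-20, against 5.14, 7.03 and 6.07 CPM in wt (2.46-fold, adjusted p = 0.00466). Flnc, which encodes the actin cross-linker filamin C, had 116, 111 and 133 CPM in d9-20, against 53.8, 69.4 and 58.3 CPM in wt (1.98-fold, adjusted p = 0.00908). Fam101a, whose product refilin A binds filamins, had 13.9, 14.2 and 16.7 CPM in d9-20, against 9.23, 8.34 and 7.30 CPM in wt (1.799-fold, adjusted p = 0.0389). The smooth muscle genes Myl9 and Mylk had log2 fold changes of 0.32 ± 0.11 and 0.23 ± 0.08 without passing. The list as a whole had 18 of 30 members above 0, 6 higher and 1 lower at an unadjusted p under 0.05, and a median of 0.07. The lower one was Acta2, the smooth muscle actin gene, picked for mention with its values known. Des passed with each library left out (adjusted p at most 0.0405) but not with the erythroid covariate (0.0953), and lies at chr1:75360329-75368579, and Flnc missed the threshold without wt replicate 1 or 3 (adjusted p up to 0.0595). Fam101a missed it without any 1 library except d28-30 replicate 2 (adjusted p up to 0.180). With the erythroid covariate the adjusted p of Flnc and Fam101a were 0.130 and 0.309.

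**Figure D2:**
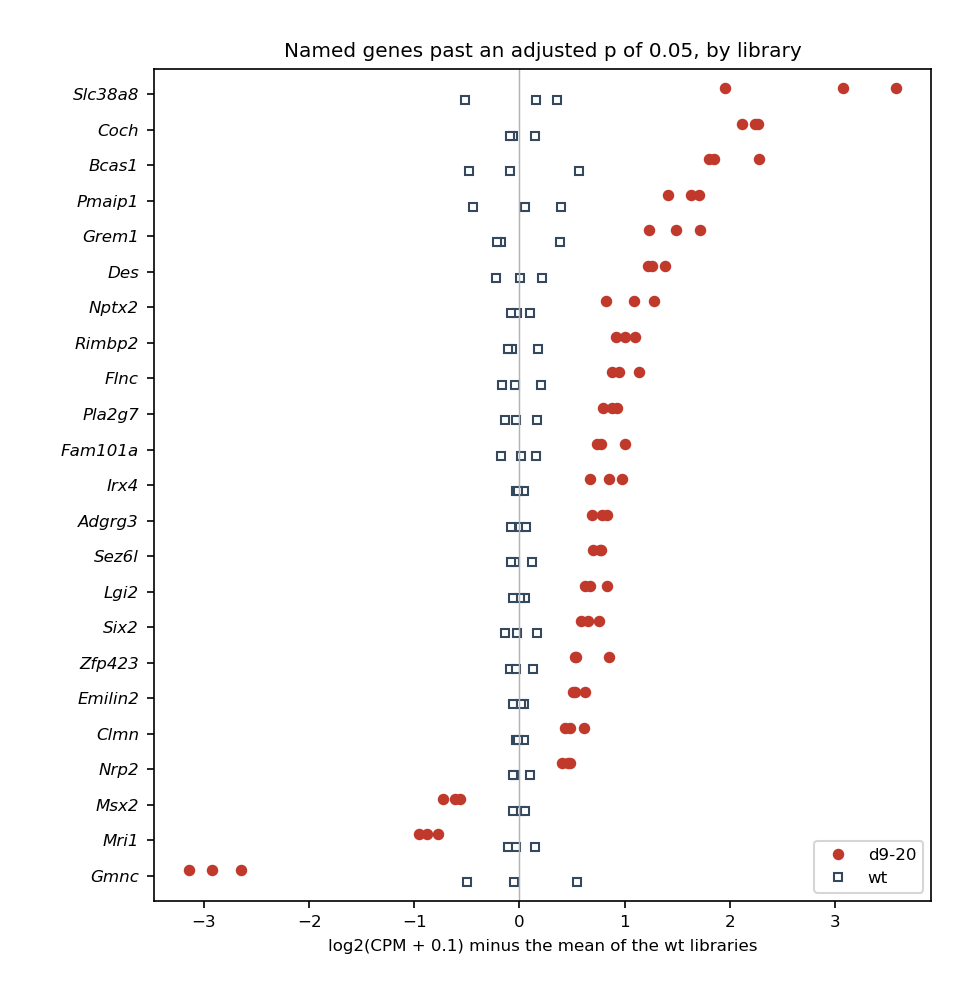
Values per library of the 23 named genes past an adjusted p of 0.05, as log2(CPM + 0.1) minus the mean of the wt libraries (horizontal axis), with d9-20 as red circles above wt as open squares. The d9-20 and wt libraries do not overlap in any of these genes, and Slc38a8, Bcas1 and Gmnc have the widest spread within a group.

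Genes of neurons gave a mixed picture. Nptx2 and Rimbp2 rose within a synapse list that lay mostly below 0, Nrp2 rose within an axon guidance list with 20 of 36 members above 0 (median 0.02), and Lgi2, Sez6l and Clmn, which are in none of the lists, rose as well. At an unadjusted p under 0.05, 3 axon guidance genes were higher and 4 lower, with Slit2 and Robo3 among the lower ones (adjusted p = 0.516 and 0.558). Nptx2, which encodes a pentraxin that clusters glutamate receptors, had 14.2, 19.4 and 17.1 CPM in d9-20, against 7.85, 7.53 and 8.53 CPM in wt (2.12-fold, adjusted p = 0.00913). Rimbp2, which encodes a scaffold of the presynaptic active zone, had 10.2, 10.8 and 11.6 CPM in d9-20, against 6.06, 5.07 and 4.94 CPM in wt (2.02-fold, adjusted p = 0.0104). Both were separated from wt in each library. Lgi2, a gene of secreted synaptic organizers, rose 1.64-fold (39.8 ± 3.11 CPM in d9-20, against 24.3 ± 0.999 CPM in wt, SD, n = 3 each, adjusted p = 0.0104). Sez6l, which encodes a membrane protein of developing neurons, rose 1.68-fold (9.10 ± 0.266 CPM in d9-20, against 5.40 ± 0.422 CPM in wt, adjusted p = 0.0295). Nrp2, a receptor gene for class 3 semaphorins that guide axons and neural crest cells, had 177, 167 and 175 CPM in d9-20, against 123, 136 and 121 CPM in wt (1.37-fold, adjusted p = 0.0298). Clmn, which encodes an actin-binding membrane protein, rose 1.42-fold (adjusted p = 0.0403). Nptx2 missed the threshold without wt replicate 1, Rimbp2 without d9-20 replicate 2 or wt replicate 3, and Lgi2 without d9-20 replicate 1 or wt replicate 1 or 3 (adjusted p up to 0.0661). Nrp2 missed it without any 1 library except wt replicate 2 or d28-30 replicate 2, and Sez6l and Clmn without any 1 library except d28-30 replicate 2 (up to 0.249). With the erythroid covariate the adjusted p of Nptx2 and Rimbp2 were 0.0683 and 0.120.

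Of the genes of synapse and neurotransmission, 30 of 42 lay below 0, as did 25 of 35 ion channel genes, with medians of -0.08 and -0.18. The synapse median was -0.19 to -0.04 with 1 library left out and 0.00 with the erythroid covariate. The channel median was -0.07 without wt replicate 1 and -0.08 with the erythroid covariate. At an unadjusted p under 0.05, 3 synaptic genes were higher and 6 lower, and 2 channel genes were higher and 5 lower. Syt4, which encodes a synaptotagmin of vesicles, had 0.608, 0.303 and 0.658 CPM in d9-20, against 2.20, 0.653 and 1.18 CPM in wt. The potassium channel gene Kcna6 had 5.97, 4.79 and 6.07 CPM in d9-20, against 8.13, 7.28 and 8.33 CPM in wt. The calcium channel gene Cacna1c had 8, 6.36 and 8.32 CPM in d9-20, against 10.7, 8.74 and 11.3 CPM in wt. In these 3 genes, replicate 2 was the lowest library of each group.

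Newborn neuron genes were below 0 in 28 of 30 cases, beside 48.8% of all genes, with a median of -0.28. At an unadjusted p under 0.05, 8 were lower and none was higher, but no member was separated between the groups and none passed the threshold. Stmn2, which encodes a tubulin-binding protein of growing axons, had 26.8, 21.5 and 44.1 CPM in d9-20, against 59.4, 33.8 and 57.7 CPM in wt. Nefl, the light neurofilament gene, had 39.3, 25.9 and 61.1 CPM in d9-20, against 78.2, 49.1 and 72.6 CPM in wt. Cntn2, an adhesion gene of outgrowing axons, had 9.11, 5.60 and 19.1 CPM in d9-20, against 28.7, 13.7 and 26.4 CPM in wt. In all 3 genes replicate 2 was the lowest library of both groups, and d9-20 replicate 3 lay above wt replicate 2. The median of the list was -0.33, -0.48 and -0.02 in the d9-20 libraries, against 0.25, -0.31 and 0.08 in wt, which differ within pairs by -0.58, -0.17 and -0.10. The median fold change of the list stayed below 0 in the 19 alternatives (-0.44 to -0.13). Neural progenitor genes had 16 of 23 members above 0 and a median of 0.08 (-0.02 with the erythroid covariate), with Sox9 at a log2 fold change of 0.29 ± 0.10 and Fabp7 at -0.69 ± 0.22. A lower level in bulk tissue can come from fewer cells of a type or from less RNA per cell, which cannot be told apart here.

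**Figure D3:**
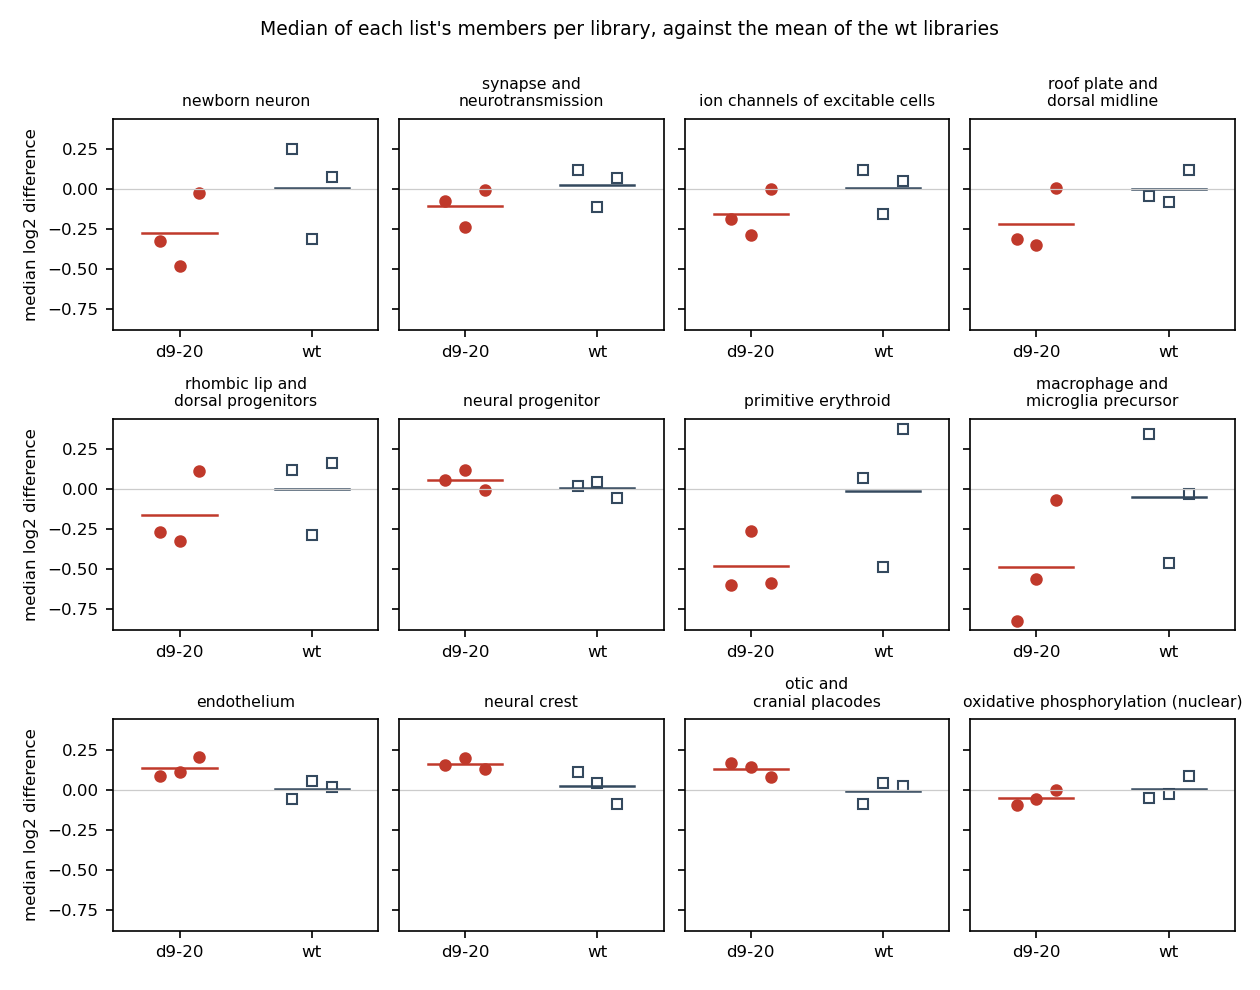
Median over the members of 12 gene lists of the log2 difference from the mean of the wt libraries (vertical axis), with d9-20 replicates 1 to 3 as red circles left of wt replicates 1 to 3 as open squares and group means as lines. The groups overlap in the newborn neuron and macrophage lists, where wt replicate 2 is at -0.31 and -0.46, and are separate in the endothelial and neural crest lists.

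Pmaip1, which encodes the pro-apoptotic protein NOXA, had 11.1, 11.8 and 9.59 CPM in d9-20, against 3.67, 4.67 and 2.57 CPM in wt, and rose 2.97-fold (adjusted p = 0.0104). It lies at chr18:66458533-66465565 and missed the threshold without d9-20 replicate 1 or 2 or wt replicate 1 (adjusted p up to 0.0863) or with the erythroid covariate (0.119). It was the only member of 28 p53 target genes with an unadjusted p under 0.05, and the median of that list was 0.01. Cdkn1a, the p53 target that halts the cell cycle, had a log2 fold change of -0.03 ± 0.14 and Bax, which encodes a pore-forming death protein, of 0.02 ± 0.13. Both genes were picked for mention with their values known. In the BCL2 family, Bid, which encodes a further BH3-only protein, had 17.7, 18.97 and 16.88 CPM in d9-20, against 12.5, 14.3 and 15.01 CPM in wt (adjusted p = 0.368), and 13 of 19 members lay above 0. Of 55 genes of DNA damage response and repair none had an unadjusted p under 0.05.

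Metabolic genes past the threshold were few and of separate pathways. Mri1, which encodes an isomerase of the methionine salvage pathway, fell by 0.88 ± 0.11 on the log2 scale (adjusted p = 0.0128), with 14.6, 15.4 and 16.6 CPM in d9-20, against 26.4, 27.8 and 31.5 CPM in wt. Cbs, the gene of the enzyme that withdraws homocysteine from the methionine cycle, was on the other side with 5.57, 7.62 and 6.63 CPM in d9-20, against 3.67, 3.77 and 3.75 CPM in wt (adjusted p = 0.0638). The other 21 genes of that list had an unadjusted p of 0.05 or more. Slc38a8, which encodes a glutamine transporter, had 129 counts over the d9-20 libraries and 11 over the wt libraries, 11.7 times as many per read counted (Clopper-Pearson, exact, 95% limits 6.33 and 24.0, counting error only), with an adjusted p of 0.0332. Pla2g7, the gene of an enzyme that inactivates platelet-activating factor, rose 1.83-fold (17.04 ± 0.786 CPM in d9-20, against 9.32 ± 1.01 CPM in wt, SD, n = 3 each, adjusted p = 0.0180). Mri1 missed the threshold without d9-20 replicate 1 or 2 or wt replicate 3 (adjusted p up to 0.102), Pla2g7 without any 1 of the d9-20 and wt libraries (up to 0.112), and Slc38a8 without d9-20 replicate 2 or 3, any wt library or d28-30 replicate 3 (up to 0.249).

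The remaining named genes that rose were regulators and membrane proteins. Irx4, a homeobox gene of the Iroquois family, had 11.7, 13.3 and 14.4 CPM in d9-20, against 7.16, 7.53 and 7.25 CPM in wt (1.798-fold, adjusted p = 0.0180). Six2, which encodes a homeodomain factor of head mesenchyme and other progenitors, had 22.9, 25.9 and 24.1 CPM in d9-20, against 15.01, 17.1 and 13.9 CPM in wt (1.59-fold, adjusted p = 0.0404). Bcas1, a gene of early myelin-forming cells in the later brain, had 4.86, 6.81 and 5.03 CPM in d9-20, against 1.24, 2.01 and 0.925 CPM in wt (3.99-fold, adjusted p = 0.0172). Adgrg3, which encodes an adhesion G protein-coupled receptor, had 9.42, 8.53 and 9.12 CPM in d9-20, against 5.28, 4.97 and 5.50 CPM in wt (1.72-fold, adjusted p = 0.0480). In Bcas1, as in Grem1, replicate 2 was the highest of each group. Bcas1 missed the threshold without d9-20 replicate 1 or 2 or wt replicate 1 or 3 (adjusted p up to 0.150), Irx4 without d9-20 replicate 2 or 3 or any wt library (up to 0.145), both with either covariate (0.183 each with the erythroid share), and Six2 and Adgrg3 without any 1 library except d28-30 replicate 2 (up to 0.267).

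The 250 bases before the start of Gmnc, Coch and Grem1 are shown from RefSeq (GRCm38.p6) in the direction of transcription. These called genes belong to the multiciliation, matrix and BMP lists. Matches to the searched motifs are in capitals.
Gmnc (chr16:26991653-26991902, minus strand): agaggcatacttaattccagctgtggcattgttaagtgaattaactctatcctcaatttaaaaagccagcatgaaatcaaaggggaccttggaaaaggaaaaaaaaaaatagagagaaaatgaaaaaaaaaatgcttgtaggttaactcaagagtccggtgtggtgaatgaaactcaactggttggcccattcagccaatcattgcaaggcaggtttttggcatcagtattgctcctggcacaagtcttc
Coch (chr12:51593091-51593340, plus strand): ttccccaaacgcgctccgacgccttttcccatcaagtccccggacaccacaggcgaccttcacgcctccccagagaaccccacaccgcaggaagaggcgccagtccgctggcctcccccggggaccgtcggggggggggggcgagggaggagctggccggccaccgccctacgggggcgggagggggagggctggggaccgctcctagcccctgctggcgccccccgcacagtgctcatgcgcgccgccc
Grem1 (chr2:113758649-113758898, minus strand): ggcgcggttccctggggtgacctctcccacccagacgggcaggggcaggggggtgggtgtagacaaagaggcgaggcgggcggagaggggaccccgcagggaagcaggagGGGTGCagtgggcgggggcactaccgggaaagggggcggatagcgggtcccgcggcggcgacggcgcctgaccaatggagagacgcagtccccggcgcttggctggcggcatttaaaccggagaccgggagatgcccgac
Both strands of all 32851 promoter windows, each reaching from 250 bases before to 50 bases after a start, were searched for the EBF site (TCCC, any 2 bases, GGGA), for GCACCC, the half-site known from rat ZFP423, and for the CArG box of serum response factor. The only capitals fall in Grem1, where GGGTGC, the complement of that half-site, begins 140 bases before the start. Of the called genes, 19 had a window, 23 windows in all, and 5 windows (21.7%) held the half-site, those of Emilin2, Grem1, Irx4, Lgi2 and Nrp2, beside 13.3% of all windows. None of these windows held the EBF site or the CArG box, which occurred in 0.779% and 1.47% of all windows. Des and Flnc are thus without a CArG box within this distance, which leaves sites elsewhere unexamined.

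Housekeeping functions lay close to 0. For 46 genes of DNA replication, 50 of mitosis, 45 of splicing, 33 of proteasome and ubiquitin and 41 of lysosome and autophagy the medians were between -0.02 and 0.01, and of all these genes only Orc6, a replication gene 2.35 Mb from Zfp423 singled out after its values were seen, had an unadjusted p under 0.05. Genes of the nuclear-encoded respiratory chain lay below 0 in 68 of 75 cases with a median of -0.06, and cytosolic ribosomal protein genes in 58 of 76 with a median of -0.03, without any member at an unadjusted p under 0.05. Genes of ribosome biogenesis lay above 0 in 28 of 34 cases with a median of 0.04, and sterol synthesis genes below 0 in 20 of 25 with a median of -0.08. The respiratory chain medians per library were -0.09, -0.06 and 0.00 in d9-20, against -0.05, -0.03 and 0.08 in wt, so that the groups overlapped, though d9-20 was lower in each pair. With the erythroid covariate the respiratory chain, ribosomal protein and sterol medians were 0.03, 0.04 and 0.04.

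Stress responses held single genes at an unadjusted p under 0.05 and no shared direction. In the list of the integrated stress and amino acid response 26 of 37 genes lay below 0 with a median of -0.04. At that level 3 of them were lower and 1, Chac1, was higher (adjusted p = 0.801). Trib3, which encodes a pseudokinase induced by ATF4, had 4.05, 2.02 and 3.48 CPM in d9-20, against 5.92, 5.07 and 9.87 CPM in wt (adjusted p = 0.397), and Slc7a1, which encodes a cationic amino acid transporter, had 46.3, 47.9 and 50.1 CPM in d9-20, against 57.3, 57.9 and 59.7 CPM in wt (adjusted p = 0.263). Ndrg1, a hypoxia-induced gene, had 13.2, 12.5 and 15.7 CPM in d9-20, against 9.23, 9.34 and 10.6 CPM in wt (adjusted p = 0.165). The hypoxia and glycolysis list held 1 gene higher and 1 lower at an unadjusted p under 0.05, the lower one being Eno2 (adjusted p = 0.438). Irf1, an interferon response factor gene, had 4.66, 5.10 and 5.22 CPM in d9-20, against 3.21, 2.31 and 3.14 CPM in wt (adjusted p = 0.291). The interferon list held 2 genes higher and 1 lower at an unadjusted p under 0.05, the lower one being H2-K1 (adjusted p = 0.540). Among immediate early genes Junb had 5.57, 5.55 and 5.74 CPM in d9-20, against 3.35, 3.32 and 3.91 CPM in wt (adjusted p = 0.538). Junb lies 2.68 Mb from Zfp423.

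**Figure D4:**
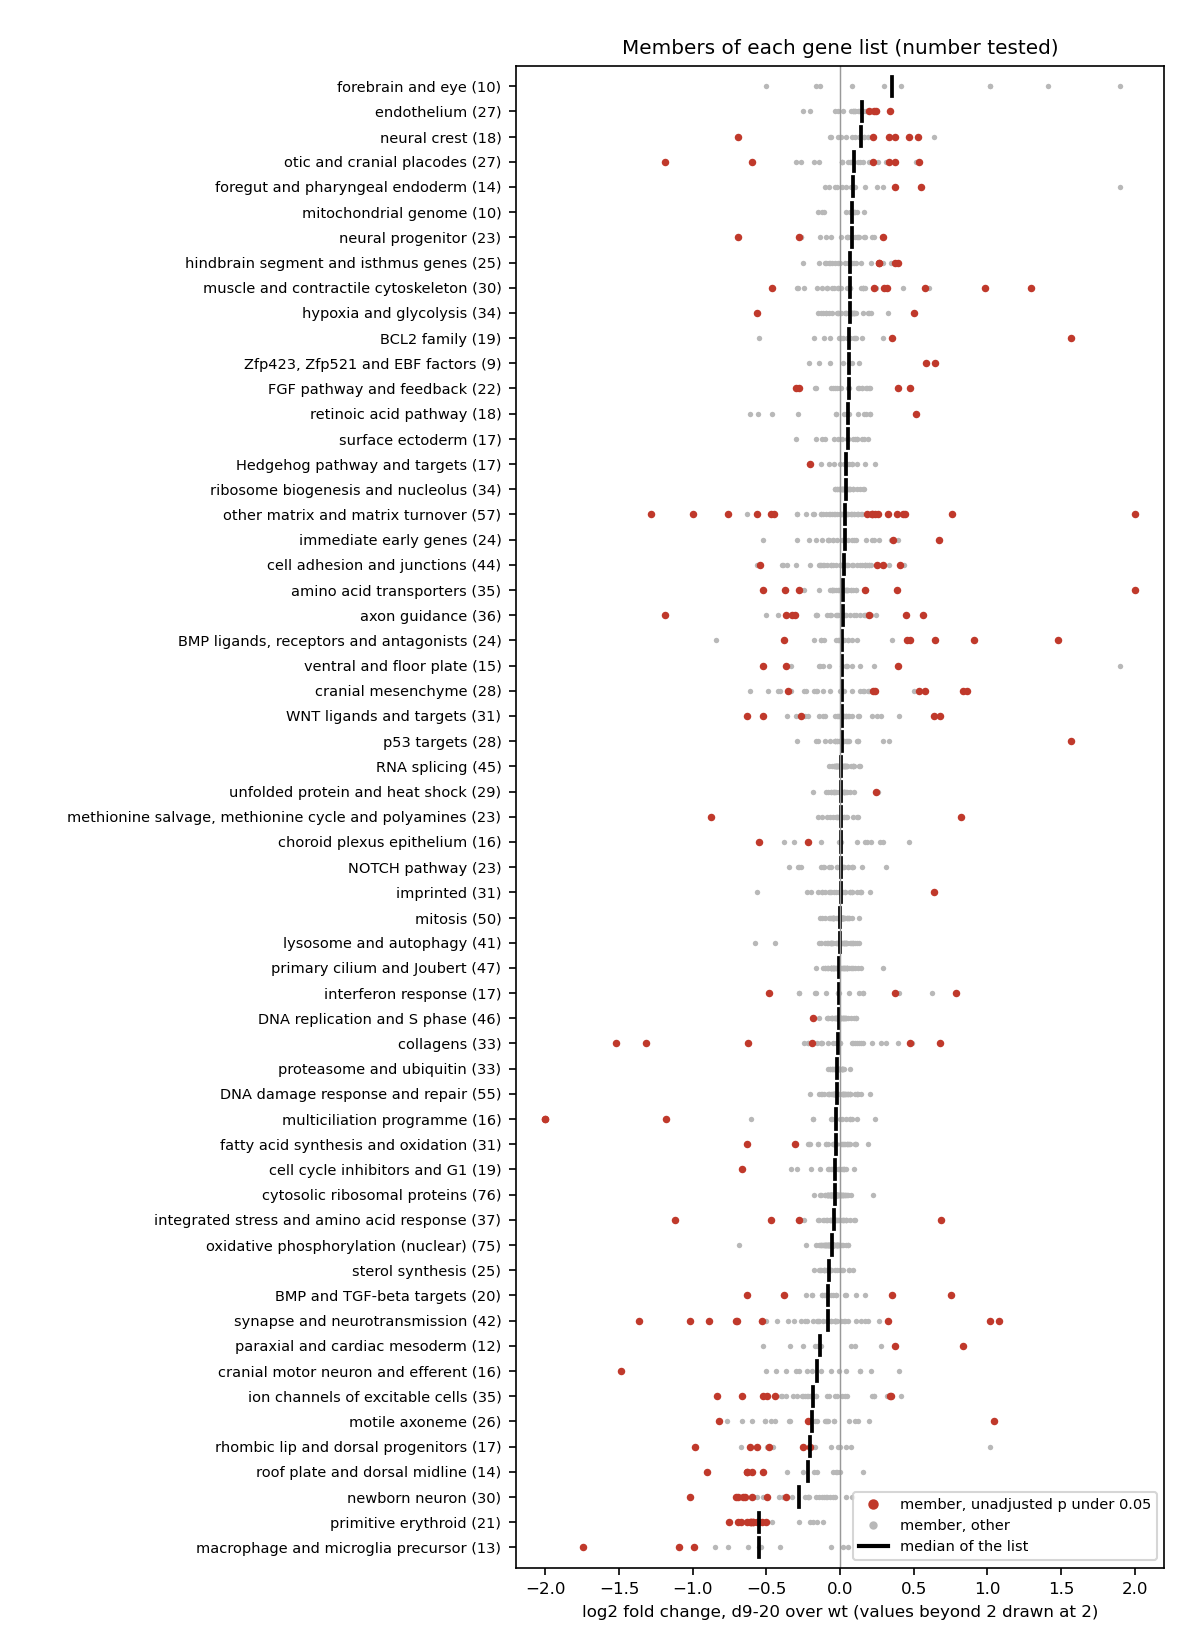
Log2 fold change of d9-20 over wt (horizontal axis) of the tested members of 59 gene lists, ordered by median, with red points for members at an unadjusted p under 0.05, black bars for medians, values beyond 2 drawn at 2, and 1 list member not drawn. Macrophage, primitive erythroid and newborn neuron lists have the lowest medians, -0.55, -0.55 and -0.28, and housekeeping lists lie within 0.1 of 0.

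Genes of other cell types in the dissected tissue differed as well, none of them past the threshold. Primitive erythroid genes lay below 0 in 20 of 21 cases, 13 of them at an unadjusted p under 0.05, with a median of -0.55. Hbb-y, an embryonic globin gene, had 1340, 1449 and 1347 CPM in d9-20, against 2424, 1539 and 3026 CPM in wt (adjusted p = 0.314, and 0.0465 without wt replicate 2), so that wt replicate 2 lay next to the d9-20 libraries. The list medians per library were -0.60, -0.26 and -0.59 in d9-20, against 0.07, -0.48 and 0.38 in wt. Macrophage precursor genes had 10 of 13 members below 0 and a median of -0.55. That median was -0.81 to -0.31 with 1 library left out and -0.08 with the erythroid covariate. Csf1r, the receptor gene that these cells depend on, had 1.42, 0.807 and 1.46 CPM in d9-20, against 3.31, 2.06 and 2.52 CPM in wt (adjusted p = 0.263). C1qc, a complement gene, had 9 counts over the d9-20 libraries and 31 over the wt libraries. In this list too, d9-20 replicate 3 and wt replicate 2 overlapped the other group.

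Endothelial, neural crest and placode genes lay above 0 in most members. With the erythroid covariate the endothelial median was 0.16, while the crest median was 0.04 and the placode median -0.0042, beside 0.14 and 0.09 without it. With 1 library left out the crest median was 0.07 to 0.19. Of 27 endothelial genes, 23 lay above 0, 4 at an unadjusted p under 0.05, with a median of 0.15. The medians per library were 0.09, 0.11 and 0.20 in d9-20, against -0.06, 0.06 and 0.02 in wt. Kdr, the main VEGF receptor gene, had 96.05, 89.5 and 91.9 CPM in d9-20, against 82.2, 81.5 and 78.2 CPM in wt (adjusted p = 0.530). Of 18 neural crest genes, 14 lay above 0 with a median of 0.14. Sox10, the regulator of crest and glial precursors, had 79.1, 79.1 and 76.5 CPM in d9-20, against 62.0, 62.2 and 62.0 CPM in wt, a narrow spread in both groups (adjusted p = 0.504, and 0.0184 without d28-30 replicate 2). Foxd3, an early crest factor gene, had 7.19, 8.93 and 6.72 CPM in d9-20, against 5.69, 5.58 and 4.52 CPM in wt, and Ngfr, a neurotrophin receptor gene, had 52.9, 58.5 and 58.3 CPM in d9-20, against 41.6, 37.8 and 43.03 CPM in wt (adjusted p = 0.398 and 0.194, and for Ngfr 0.0203 without d28-30 replicate 2). Of 28 cranial mesenchyme genes, 6 were higher and 1 lower at an unadjusted p under 0.05, with Foxc2 at 17.8, 20.6 and 18.6 CPM in d9-20, against 11.8, 14.4 and 12.1 CPM in wt (adjusted p = 0.121), and Tbx1 at 25.5, 31.2 and 31.9 CPM in d9-20, against 18.6, 20.9 and 21.7 CPM in wt (adjusted p = 0.194, and 0.0359 with the replicate block). Of 27 otic and placode genes, 21 lay above 0, while Oc90, an otolith gene of the ear vesicle singled out after its values were seen, had 3.19, 0.757 and 3.86 CPM in d9-20, against 7.53, 4.12 and 6.17 CPM in wt (adjusted p = 0.622). With the erythroid covariate the adjusted p of Sox10 and Tbx1 was 0.917 each, and that of Ngfr was 0.337. How much the cells of these lists contributed to the genes called above was not tested.

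Genes near Zfp423 differed more often than genes elsewhere, a pattern singled out after the values were seen. Of 105 tested genes within 5 Mb of the ends of Zfp423, 28 (26.7%) had an unadjusted p under 0.05, 11 higher and 17 lower in d9-20, beside 5.96% of all genes tested. In 37 of them (35.2%) the groups did not overlap, beside 11.2% of all genes, and the median size of the log2 fold change was 0.18, beside 0.07. The share was 11.9% of 59 genes at 5 to 10 Mb, 3.50% of 200 genes at 10 to 20 Mb and 6.21% of 419 genes farther away on chromosome 8. Cut into windows of 10 Mb with at least 50 tested genes, the genome had 121 windows with a median share of 5.71%, and the highest shares, 24.0% and 18.97%, were those of chromosome 8 from 80 and from 90 Mb. Of the 25 called genes with a position, 5 (20.0%) lie on chromosome 8, which holds 5.14% of the genes tested. These 5 include Zfp423 itself and Slc38a8, which lies 31.5 Mb away. Mri1, one of the genes that fell, lies 3.40 Mb from Zfp423 at chr8:84249906-84257326, and Adgrg3 lies 7.06 Mb from it.

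Neighbours of lower level in d9-20 included genes of unrelated function. Rnf150, a ring finger gene, had 10.5, 8.12 and 12.6 CPM in d9-20, against 21.1, 14.4 and 20.0 CPM in wt. Scoc, a gene of autophagy and Golgi traffic, had 16.8, 18.7 and 18.2 CPM in d9-20, against 31.3, 31.5 and 24.5 CPM in wt (adjusted p = 0.0783, and 0.0465 with the replicate block). Dnase2a, the gene of a lysosomal nuclease, had 1.52, 1.26 and 1.97 CPM in d9-20, against 3.58, 3.01 and 2.93 CPM in wt. Syce2, a gene of the meiotic synaptonemal complex, had 17.7, 16.6 and 16.7 CPM in d9-20, against 22.5, 24.1 and 23.7 CPM in wt. None of these 4 passed the threshold and in each the groups did not overlap. Scoc had an adjusted p of 0.0953 with the erythroid covariate. Within the same 5 Mb, the d28-30 libraries differed from wt at an unadjusted p under 0.05 in 21.9% of genes (8.08% over all genes), in a comparison that uses the same wt libraries, while d9-20 differed from d28-30 in 5.71% (9.58% over all genes). Whether the chromosome around the allele differs in sequence between the groups was not tested.

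**Figure D5:**
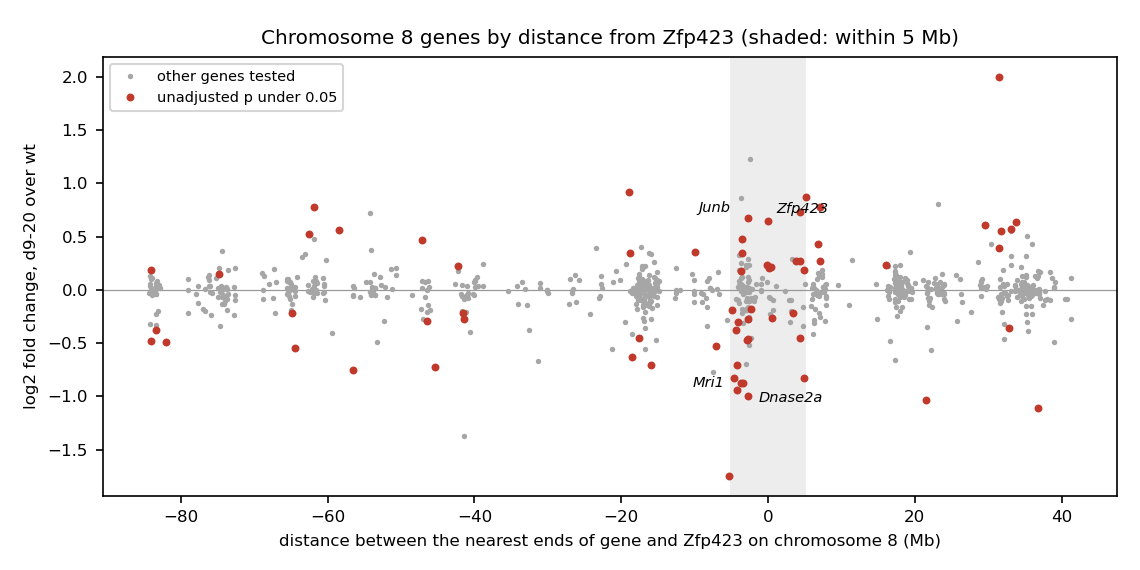
Log2 fold change of d9-20 over wt (vertical axis) of tested genes on chromosome 8 by the distance in Mb between their nearest end and that of Zfp423 (horizontal axis), with red points at an unadjusted p under 0.05 values drawn no farther than 2 from 0 and 1 gene past the threshold not drawn. Within the shaded 5 Mb on either side 26.7% of the genes apart from Zfp423 are red, and 6.21% of those more than 20 Mb away.

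The calls were set beside the d28-30 allele, which shares the wt libraries. Between d9-20 and d28-30 no gene of 15695 passed an adjusted p of 0.05 in edgeR, and 1504 had an unadjusted p under 0.05. Among the 26 called genes 8 reached that level. Coch had 15.1, 13.8 and 15.4 CPM in d9-20, against 23.3, 31.0 and 24.5 CPM in d28-30, a log2 difference of -0.83 ± 0.12 (adjusted p = 0.121). Des was on the other side with 14.9 ± 0.903 CPM in d9-20 and 9.54 ± 1.04 CPM in d28-30 (SD, n = 3 each), a log2 difference of 0.65 ± 0.13. Emilin2, Adgrg3, Clmn and Nrp2 had differences of 0.38, 0.57, 0.29 and 0.20. Coch, Des and Emilin2 passed with DESeq2 and without a filter on low counts (adjusted p up to 0.0356). Gmnc, Msx2, Mri1, Pmaip1 and Grem1 had log2 fold changes of -3.13, -0.63, -0.88, 1.57 and 1.48 in d9-20 against wt, and of -3.91, -0.67, -1.05, 1.71 and 1.43 in d28-30 against wt.

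Without d28-30 replicate 2, the 93 genes called in d9-20 against wt were 74 higher and 19 lower, with no overlap between the groups in any of them. They were picked by p in the same d9-20 and wt libraries. Over all genes tested with 9 libraries, the groups lay apart as higher in 5.99% and as lower in 5.17%. Among the 20 further genes with the smallest adjusted p in the fit without d28-30 replicate 2, 17 were higher and 3 lower, and 3 of them lie on chromosome 8. Apoe, which encodes a lipid carrier, had 85.1, 92.9 and 96.5 CPM in d9-20, against 49.7, 56.5 and 57.3 CPM in wt (adjusted p = 0.00297 there, 0.0783 with all 9 libraries). Speg, which encodes a kinase of striated muscle, lies beside Des on chromosome 1 and had 56.7, 57.3 and 59.5 CPM in d9-20, against 33.6, 38.9 and 40.0 CPM in wt (adjusted p = 0.00525 there). Tead4, which encodes a partner of YAP in Hippo signalling, had 16.1, 16.85 and 16.8 CPM in d9-20, against 9.46, 11.2 and 9.56 CPM in wt (adjusted p = 0.0120 there). Hap1, the gene of the huntingtin-associated protein of neurons, was lower with 26.7, 22.9 and 29.9 CPM in d9-20, against 41.0, 39.9 and 47.2 CPM in wt (adjusted p = 0.0176 there). Others that were higher are Rnf135, Cpne5, Trh, Sirpa, Cdc42ep1, Sox10, Ctla2a, Ssc5d, Ciapin1, Cd276, Ngfr, Stum and Gareml, with log2 fold changes between 0.33 and 1.13 in the fit of 9 libraries, and Palm3 was lower. Of the list members described above, Lmx1a, Tgfbi, Nbl1, Notum, Junb, Cbs, Lama5, Col6a3, Col1a1 and Col7a1 passed in that fit too.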

How the data were processed

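RNA of mouse hindbrain was made into stranded libraries and read as single 75-base reads, per the labels' protocols. The deposited table holds raw read counts per gene, made by the authors with STAR 2.5.3a and featureCounts on GRCm38, per the submitters' processing notes, which also name limma. The strand setting of the counting is not given in the sources used here. The 9 columns were matched to the libraries by their titles, and 0 columns belonged to no sample.

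Genes were kept with edgeR's filterByExpr, scaled by TMM and tested with the quasi-likelihood test (edgeR 4.0.16, R 4.3.3) in 1 fit of 9 libraries, with Benjamini-Hochberg adjustment over 15695 genes and a threshold of 0.05. CPM use TMM-adjusted library sizes, taken for Ttr from the totals before the filter. Shares and the level of 3 counts given below use unadjusted totals. DESeq2 1.42.0 and limma-voom (limma 3.58.1), 2 other scalings, other filters, 2 covariates, a replicate block, the d9-20 and wt libraries alone and each library left out were alternatives. A library had 3 counts at 0.139 to 0.156 CPM. Intervals cover counting error only, since reads without molecular identifiers are not independent molecules. The fit was tested on simulated counts. Single values per library were compared with exact permutation tests in R, and the Clopper-Pearson limits were computed with SciPy 1.17.1. Positions come from GENCODE M21 for 97.1% of tested genes, and promoters from RefSeq.

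Titles number 2 libraries of each group 1 and 2, and the library without a number is called replicate 3. The d9-20 and wt libraries correlated at 0.989 to 0.993 within a group and at 0.985 to 0.993 between the groups, so that these ranges overlapped. None was a repeat of another. Same-numbered d9-20 and wt libraries were taken as pairs in the block, though the labels give no batch. Their deviations from the group means correlated at r = 0.133, 0.269 and 0.494 across genes, against -0.388 to 0.200 for other pairs. The value of 0.200 was that of d9-20 replicate 1 with wt replicate 2, above its 0.133 with wt replicate 1. Pair 1 thus rests on its number alone. The third pair rests on the absence of a number in its titles and on its correlation of 0.494 in these same data.

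The members and the 62 gene lists were chosen with earlier results of these data known. Named are the genes past the threshold, in each list described the members at an unadjusted p under 0.05 (at most 4 by p), the 20 further genes with the smallest adjusted p without d28-30 replicate 2, and genes near Zfp423. Of the called genes 2 are not reported here, and 1 called pseudogene is counted only. Genes with near-identical copies, such as the globins, may share reads.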

Additional observations from a re-analysis of the deposited data

How the results depend on the processing

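The 26 calls, 23 higher and 3 lower, became 25 with RLE scaling, 20 with upper-quartile scaling, 26 with a stricter filter and 24 with limma-voom. The count moved further under other settings. It was 40 with the 6 d9-20 and wt libraries alone (33 higher, 7 lower), 148 without a filter on low counts (78 higher, 70 lower), 122 with DESeq2 (82 higher, 40 lower), 55 with the replicate block (36 higher, 19 lower), 13 with the Y-linked level as a covariate (11 higher) and 5 with the erythroid share as a covariate (3 higher). With 1 library left out it ranged between 6 and 93, with 5 to 74 higher and 1 to 19 lower, and where that left 2 libraries in a group the spread was pooled over all libraries. The cause of these moves was not tested. The set of 26 was contained in those of the replicate block, DESeq2 and both filters, and 4 of its genes were in the erythroid covariate set, Coch and Gmnc among them. The replicate block ended no call. Of the called genes, 0 differed between d9-20 and d28-30 except without a filter and with DESeq2, with 3 each. No result changed its direction past a threshold. Of the named genes' values under the alternatives, 2595 stayed on their side of the threshold, 147 came to pass it and 148 ceased to pass. Of the list medians, 1029 moved by less than the spread between replicates and 92 moved by more. Genes with few counts, such as Gmnc with 10 to 16 per d9-20 library, are limited by depth.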
